A study of Mus musculus with 32 samples.

Results

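The genes described here are 10 that mark undifferentiated mouse embryonic stem cells (mESCs): Pou5f1, Sox2, Sall4, Utf1, Tdgf1, Dppa2, Dppa4, Dppa5a, Trim71 and Nr5a2. They were chosen by symbol and not by a rule on their values, though with earlier results of these data known. They are 10 of the 24028 symbols in the expression tables. All 10 had a value in both libraries, and all 10 passed the filter on low values. The study asked how Polycomb, a group of repressor proteins, keeps DNA methylation low around developmental genes, and used RNA-seq to follow transcription when the Polycomb subunit EED was lost. RNA was sequenced from WT mESCs and from Eed -/- mESCs, with 1 library per genotype and therefore no replicates, no test and no spread between cultures for any value. Both samples are labelled as the line TT2 and as mESCs, and both were grown on gelatin in serum with leukaemia inhibitory factor. The labels do not say how Eed was disrupted in the RNA sample. The Eed -/- samples of the study's other assays carry the name of another line, so a difference between lines and a difference in genotype cannot be told apart if the RNA came from that line too.

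Pluripotent cells are held in their state by a small set of transcription factors, with OCT4 (encoded by Pou5f1) and SOX2 binding DNA side by side at the enhancers of many stem cell genes, their own included. Other genes of the set are read-outs of this state: they are transcribed in the early embryo and in mESCs and are silenced as cells differentiate. EED is the subunit of Polycomb repressive complex 2 (PRC2) that binds methylated lysine 27 of histone H3, and it is needed for the complex to place that mark.

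Every one of the 10 genes was transcribed in both libraries, and none differed by 2-fold. Of all genes tested 3.80% were past 2-fold higher and 3.98% past 2-fold lower, so none of 10 is near these shares. Levels are given as deposited, in FPKM (fragments scaled to the length of the transcript and to the mapped reads of the library). Changes are differences in log2(FPKM + 1) after quantile normalization, the library labelled Eed-/- minus WT, so that 1 is a 2-fold difference. The low values place the depth at about 7220000 fragments in WT, against 6460000 in the library labelled Eed-/-. Each change has a 95% counting interval (Clopper-Pearson) from the fragments this depth gives the gene, which covers counting error only. On this scale the library labelled Eed-/- was higher than WT for 4 genes and lower for 6. The median change was -0.04 over the 10 genes and 0.01 over all 14835 genes tested. The changes ranged from -0.59 for Dppa4 to 0.80 for Dppa5a.

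The Eed transcript itself was not lower in the library labelled Eed-/-. Eed (chromosome 7, 97103166 to 97129493, minus strand, mm9) had 63.0 FPKM in WT and 70.9 FPKM in the library labelled Eed-/-, a change of 0.40 with a counting interval of 0.26 to 0.53. The study checked the loss of EED in its Eed-deficient mESCs through the histone mark that PRC2 places, in assays not analysed here. The transcript level does not check the genotype label, and every direction below is that of the library with this label.

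**Figure D1:**
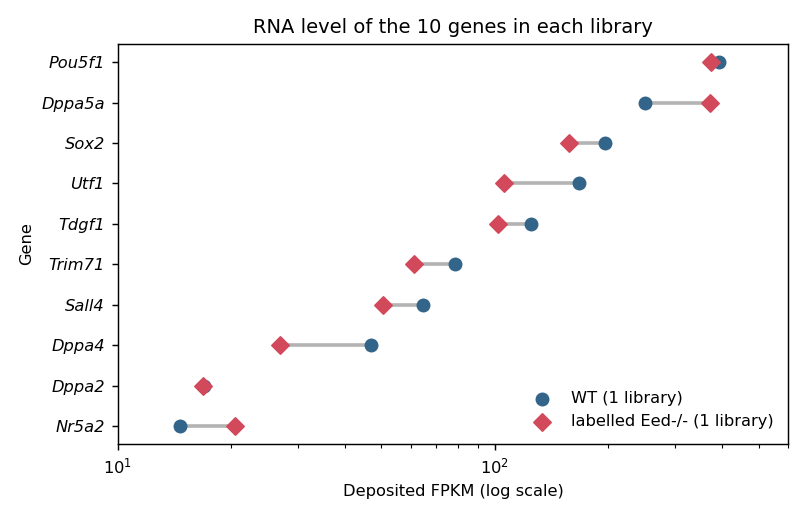
Deposited FPKM (log axis) of each of the 10 genes in WT (blue circles) and in the library labelled Eed-/- (red diamonds), 1 library each, ordered by the WT level. Pou5f1 is highest in both, at 393 and 373 FPKM, and the red diamond lies clearly to the right of the blue circle for Dppa5a and Nr5a2.

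The series concerns DNA methylation, which in these cells is placed mainly on cytosines followed by guanine (CpG). The stretch of 250 bases before the annotated start was therefore read for the genes that have one in the RefSeq promoter table (GRCm38.p6, a later build than the mm9 of the gene positions given with each gene). These were Pou5f1, Sox2, Utf1, Tdgf1, Trim71 and Nr5a2, with 8 windows in all since Pou5f1 and Nr5a2 have a pair each. Sall4, Dppa2, Dppa4 and Dppa5a have no entry. 4 of the windows follow, each 5′ to 3′ on the gene's strand with CpG in capitals. They are the window with the most CpG (Sox2), the window with the fewest (Nr5a2, the start further upstream of its pair), that of the highest gene (Pou5f1, the upstream start) and that of the gene with the lowest change among the 6 (Utf1).
Sox2, chr3:34649745-34649994, plus strand: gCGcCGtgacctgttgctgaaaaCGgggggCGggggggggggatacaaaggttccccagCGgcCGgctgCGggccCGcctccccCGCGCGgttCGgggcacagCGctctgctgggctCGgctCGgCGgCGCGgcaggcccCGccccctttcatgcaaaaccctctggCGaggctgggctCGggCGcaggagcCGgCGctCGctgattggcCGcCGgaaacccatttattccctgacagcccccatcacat
Utf1, chr7:139943606-139943855, plus strand: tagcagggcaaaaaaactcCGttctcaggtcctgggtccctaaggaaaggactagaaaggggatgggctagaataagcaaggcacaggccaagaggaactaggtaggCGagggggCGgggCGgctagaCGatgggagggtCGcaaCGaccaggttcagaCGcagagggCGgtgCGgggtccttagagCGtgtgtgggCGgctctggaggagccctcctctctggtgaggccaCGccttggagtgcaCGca
Pou5f1, chr17:35505782-35506031, plus strand: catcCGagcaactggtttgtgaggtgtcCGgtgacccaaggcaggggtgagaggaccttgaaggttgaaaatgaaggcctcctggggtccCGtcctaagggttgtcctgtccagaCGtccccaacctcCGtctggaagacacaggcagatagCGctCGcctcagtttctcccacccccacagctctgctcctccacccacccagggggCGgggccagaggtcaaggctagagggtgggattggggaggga
Nr5a2, chr1:136960449-136960698, minus strand: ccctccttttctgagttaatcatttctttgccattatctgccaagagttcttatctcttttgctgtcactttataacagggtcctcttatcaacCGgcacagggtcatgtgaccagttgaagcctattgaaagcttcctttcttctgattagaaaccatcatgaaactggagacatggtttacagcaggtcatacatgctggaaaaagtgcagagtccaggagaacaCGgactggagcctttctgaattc

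The windows differed widely in base composition. That of Sox2 held 27 CpG and 72% G or C, that of Trim71 17 CpG and 62.8%, and that of Utf1 14 CpG and 61.6%. Over all 32851 windows in the table the medians were 6 CpG and 52.4%. The upstream window of Pou5f1 held 8 CpG, and that of Tdgf1 7. The pair of Nr5a2 windows held 6 and 2. The downstream window of Pou5f1 held 6. Changes in RNA level, described next, were -0.08 for Sox2, -0.14 for Trim71, -0.38 for Utf1, 0.14 for Pou5f1, -0.004 for Tdgf1 and 0.62 for Nr5a2. No order is read from 6 genes in 2 libraries, and no methylation value was analysed here.

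Short motifs were searched on both strands of the same windows. The octamer that OCT4 binds (ATGCAAAT) was in 0 of the 8 windows and in 1.6% of all windows. The core recognised by SOX factors (ACAATG) was in 1 of 8, the downstream window of Pou5f1, and in 10.7% of all. The extended half-site of NR5A2 and ESRRB (TCAAGGTCA) was in 0 of 8 and in 0.387% of all, and an E2F-like site (GCGCGAAA) in 0 of 8 and in 0.256%. The letters of a TATA box (TATAAA) were in 1 of 8, the Nr5a2 window printed above, and in 12.4% of all. The Nr5a2 match lies on the opposite strand, printed as TTTATA, 181 bases before the start. The GC box (GGGCGG), a motif added after the sequences were seen, was in 5 of 8 windows (Pou5f1 upstream, Sox2, Utf1, Tdgf1 and Trim71) and in 32.7% of all. The Utf1 window held 4 matches, of which a pair overlaps, and the Sox2 window held 2. A match is a description of these letters in this window and not a binding site.

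Pou5f1 encodes OCT4, the POU factor without which the pluripotent state is lost. It lies on chromosome 17 (35642982 to 35647721, plus strand, mm9). Its level was 393 FPKM in WT and 373 FPKM in the library labelled Eed-/-. It was the highest of the 10 genes in both libraries, at rank 140 of the 14835 genes tested in WT, against rank 128 in the library labelled Eed-/-. Normalization gave 367 and 404, a change of 0.14 (counting interval 0.06 to 0.21). The sign depends on the scaling, since the change of the FPKM as deposited was -0.07.

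Sox2 encodes the HMG-box factor that binds next to OCT4. It is an intronless gene on chromosome 3 (34548927 to 34551383, plus strand, mm9). Its level was 196 FPKM in WT and 157 FPKM in the library labelled Eed-/-. After normalization these were 182 and 172, a change of -0.08 with a counting interval of -0.16 to -0.005. Pou5f1 stood to Sox2 at 2.01 in WT and at 2.38 where Eed-/- was the label. This ratio of deposited FPKM does not depend on a constant factor between libraries, and its log2 change was 0.24 (counting bounds 0.14 to 0.35). Both partners of the OCT4 and SOX2 pair thus stayed within 1.5-fold of their WT level.

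Sall4 encodes a zinc-finger factor that binds in the same protein network and keeps mESCs from turning to trophoblast. It lies on chromosome 2 (168573832 to 168593443, minus strand, mm9). Its level was 64.6 FPKM in WT and 50.5 FPKM in the library labelled Eed-/-, and the change was -0.12 (-0.22 to -0.03). Utf1, on chromosome 7 (147129688 to 147131011, plus strand, mm9), encodes a chromatin-bound protein of undifferentiated cells and is a classical target of OCT4 and SOX2. Its level was 167 FPKM in WT and 106 FPKM in the library labelled Eed-/-. The normalized levels were 153 and 117, a change of -0.38 (-0.51 to -0.25), next to Dppa4 the lowest of the 10. With the FPKM as deposited its change was -0.64.

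Nr5a2 encodes LRH-1, an orphan nuclear receptor that binds regulatory DNA of Pou5f1 and can stand in for OCT4 in reprogramming. It lies on chromosome 1 (138740161 to 138857004, minus strand, mm9). Its level was 14.6 FPKM in WT and 20.5 FPKM in the library labelled Eed-/-. The normalized levels were 13.9 and 21.9, that is 1.57-fold, a change of 0.62 (0.43 to 0.81). Chromosome 1 as a whole was shifted the other way, with a median change of -0.29 over its tested genes, and the 9 other tested genes within 1 Mb of Nr5a2 had a median of -0.55. Chromosomes 8 (-0.38), X (0.46) and Y (1.77, over 6 genes) were shifted too, and none of the 10 genes lies on them. Whether such shifts come with the line or with the genotype cannot be told apart. Relative to the median of all tested genes on its chromosome, the change of Nr5a2 was 0.91. Over genes of at least 10 FPKM, as Nr5a2 is, the medians were -0.49 for chromosome 1, -0.54 for chromosome 8 and 0.61 for X. Relative to that chromosome 1 median, or to the median within 1 Mb, Nr5a2 lies past 2-fold higher. For the other 9 genes the chromosome median lay between -0.01 and 0.08.

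**Figure D2:**
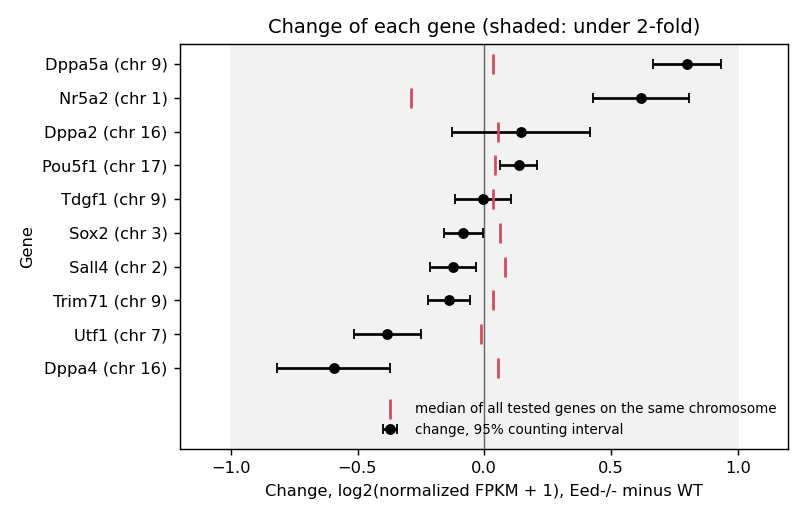
Change of each gene in log2(normalized FPKM + 1), Eed-/- minus WT (black points, 1 library per genotype), with the 95% counting interval as a bar and the median change of all tested genes of the same chromosome as a red tick. All 10 points lie inside the shaded band of changes under 2-fold, and Nr5a2, at 0.62, lies farthest from its chromosome's tick, at -0.29.

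Tdgf1 encodes CRIPTO, the membrane-bound co-receptor through which NODAL signals. It lies on chromosome 9 (110842114 to 110848662, minus strand, mm9). Its level was 125 FPKM in WT and 102 FPKM in the library labelled Eed-/-. The normalized levels were 114 and 113, and the change was -0.004 (-0.11 to 0.11). It was -0.28 with the FPKM as deposited and -0.12 under median-ratio scaling. The genome holds 1 near-identical copy of its transcript, so the split of reads between gene and copy is uncertain. Trim71, also on chromosome 9 (114420393 to 114473487, minus strand, mm9), encodes an RNA-binding protein of the TRIM-NHL family that represses mRNAs and is itself a target of the let-7 microRNA. Its level was 78.6 FPKM in WT and 61.1 FPKM in the library labelled Eed-/-, and the change was -0.14 (-0.22 to -0.06). The ratio of Trim71 to Sall4 was 1.22 and 1.21.

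The widest spread was among the developmental pluripotency-associated genes. Dppa2 and Dppa4 are neighbours on chromosome 16 (48310590 to 48319836 and 48283848 to 48294405, both plus strand, mm9) and encode related proteins with a SAP domain that work as a pair on chromatin. The proteins translated from the annotated transcripts have 301 and 296 residues and share 28.6% identity (95 of 332 aligned positions). Dppa4 was at 47.0 FPKM in WT and 26.9 FPKM in the library labelled Eed-/-. Its normalized levels were 44.0 and 28.8, 1.53-fold lower, and its change of -0.59 (-0.82 to -0.37) was the lowest of the 10. Dppa2 was at 16.9 FPKM in WT and 16.8 FPKM in the library labelled Eed-/-. The change of 0.15 had a counting interval of -0.13 to 0.42 that holds 0, with about 215 and 192 fragments behind the levels.

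The partners did not keep their proportion. Dppa4 stood to Dppa2 at 2.79 in WT, against 1.60 in the library labelled Eed-/-, a log2 change of -0.80 with counting bounds of -1.16 and -0.44. The 4 tested genes within 1 Mb of Dppa4 had a median change of 0.11. The transcripts of Dppa2 and Dppa4 each have 2 near-identical copies in the genome, so both levels carry the uncertainty of how reads were assigned.

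Dppa5a encodes a small RNA-binding protein with a KH domain, found in the early embryo and in germ cells, and is used as a marker of undifferentiated mESCs. It lies on chromosome 9 (78214859 to 78215984, minus strand, mm9). Its level was 250 FPKM in WT and 372 FPKM in the library labelled Eed-/-. The normalized levels were 231 and 402, that is 1.74-fold, and its change of 0.80 (0.67 to 0.93) was the highest of the 10. In WT it stood 1.57-fold below Pou5f1, and in the library labelled Eed-/- the ratio of Pou5f1 to Dppa5a was 1.00. Its transcript of 619 bases has 5 near-identical copies in the genome, the most of the 10, so this value is uncertain too.

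Over the 10 genes, the order of the levels was nearly the same in both libraries. From the highest, it ran Pou5f1, Dppa5a, Sox2, Utf1, Tdgf1, Trim71, Sall4 and Dppa4 in both, and Dppa2 and Nr5a2 exchanged the last places. The highest gene stood 26.8-fold over the lowest in WT, against 22.2-fold in the library labelled Eed-/-. For neighbours in the order, the ratio of the levels was given a 95% counting interval from their fragments. In WT this interval held 1 for Dppa2 over Nr5a2 (ratio 1.15, interval 0.97 to 1.37) and for no other neighbours. In the library labelled Eed-/- it held 1 for Pou5f1 over Dppa5a (ratio 1.00, 0.933 to 1.08) and for Utf1 over Tdgf1 (1.04, 0.946 to 1.14). Nr5a2 over Dppa2 was there at 1.22 (1.03 to 1.45). All 10 genes had a mean normalized level of at least 10 FPKM, a level that 4957 of the 14835 genes tested reached.

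No gene of the 10 was past 2-fold in either direction, beside 3.80% of all tested genes past 2-fold higher and 3.98% past 2-fold lower. At 1.5-fold, Dppa5a and Nr5a2 were higher and Dppa4 was lower, that is 2 and 1 of 10. With the FPKM as deposited this turned to 0 higher and 2 lower (Utf1 at -0.64 and Dppa4 at -0.79), as Dppa5a (0.57) and Nr5a2 (0.46) came to lie under 1.5-fold. Among all tested genes 12.3% were past 1.5-fold higher and 12.4% lower, and among the genes of at least 10 FPKM 11.5% and 12.2%. The counting interval lay above 0 for 3 genes (Pou5f1, Dppa5a and Nr5a2), below 0 for 5 (Sox2, Sall4, Utf1, Dppa4 and Trim71) and held 0 for Tdgf1 and Dppa2. Among 4577 genes of at least 10 FPKM with such an interval, it lay above 0 for 34.3% and below 0 for 32.1%. The median absolute change was 0.14 for the 10 genes, 0.32 for all genes tested and 0.31 for the genes of at least 10 FPKM. As deposited these were 0.35, 0.33 and 0.34, so the smaller size for the 10 genes depends on the scaling. With 10 genes and 1 library per genotype these shares are descriptions.

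**Figure D3:**
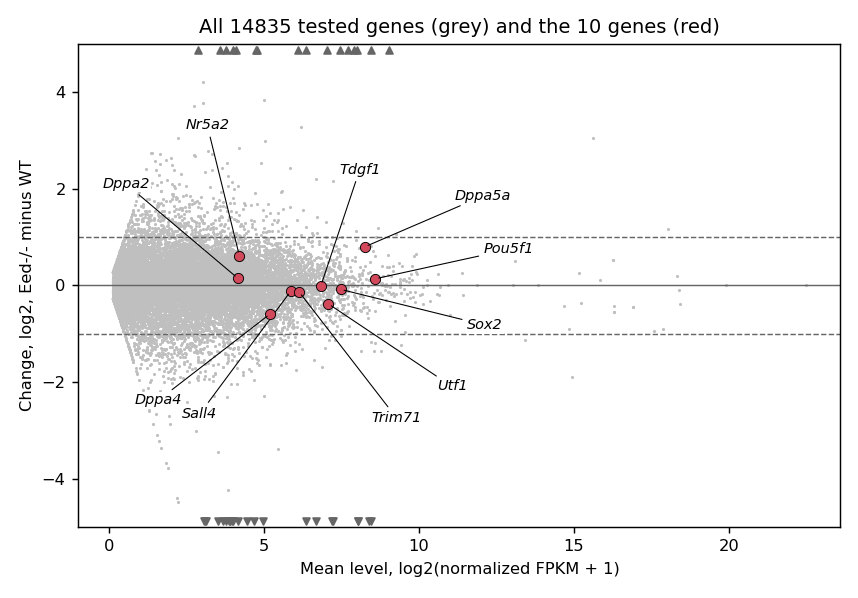
Change (log2, Eed-/- minus WT) against the mean level, log2(normalized FPKM + 1), for all 14835 genes tested (grey) and the 10 genes (red, labelled), with dashed lines at 2-fold and triangles at the edges for the genes past 5 in size (16 higher and 23 lower). The 10 genes lie among the well expressed genes and inside the dashed lines, between -0.59 and 0.80.

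By level, the genes most like Dppa5a in both libraries were P4hb (252 FPKM in WT and 371 FPKM in the library labelled Eed-/-), Tmsb4x (220 and 330) and Uqcr10 (280 and 431). They lay at distances of 0.013, 0.25 and 0.27 in the plane of the 2 normalized log2 levels. Those most like Dppa4 were Actr3 (46.3 and 26.4 FPKM), Eif2b3 (46.8 and 26.2) and Tor1aip2 (46.9 and 26), at 0.028, 0.03 and 0.04. With 2 libraries, likeness means only 2 like levels. Uqcr10 and Actr3 have 1 near-identical copy each in the genome.

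The scaling of the libraries decided part of the picture. As deposited, the library labelled Eed-/- was below WT for 8 of the 10 genes and above it for 2. The median change was then -0.30, and Pou5f1 (-0.07) and Dppa2 (-0.01) turned to the lower side. The median of all tested genes was itself at -0.09 on that scale. Sox2, Sall4, Utf1, Tdgf1, Dppa4 and Trim71 were lower, and Dppa5a and Nr5a2 higher, under all 10 settings tried. Not all of these are separate checks, since the filters and leaving out repeated symbols gave the same changes as the main setting. Across the 10 settings Dppa5a ranged from 0.57 to 0.80, Nr5a2 from 0.46 to 0.91, Dppa4 from -0.79 to -0.59 and Utf1 from -0.64 to -0.37. The 6 genes without a near-identical copy had changes from -0.38 to 0.62, with a median of -0.10. Of these, Pou5f1 and Nr5a2 each have 1 less similar match elsewhere in the genome, at 90% identity or more. It covers up to 100% of the Pou5f1 transcript and 80.6% of that of Nr5a2, so read assignment is not free of doubt there either.

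**Figure D4:**
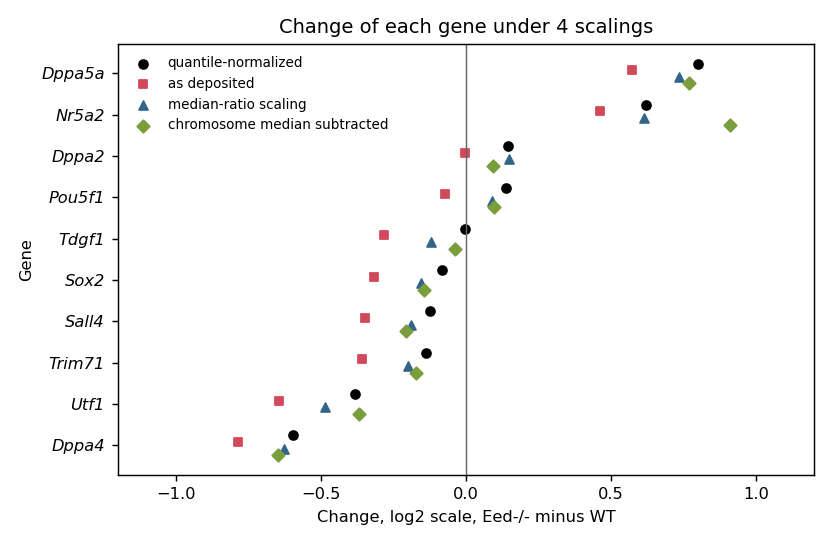
Change of each gene (log2, Eed-/- minus WT) under 4 scalings: quantile normalization (black circles), the FPKM as deposited (red squares), median-ratio scaling (blue triangles) and the chromosome median subtracted (green diamonds). The red squares lie to the left of the black circles for all 10 genes, and for Pou5f1 and Dppa2 they lie below 0, at -0.07 and -0.01.

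Several genes of the wider network were past 2-fold. The counts and medians of the lists below are on the normalized scale. They are to be read beside all tested genes, of which 3.80% were past 2-fold higher and 3.98% lower, with a median change of 0.01. Of 14 factors of naive pluripotency, the ground state of the preimplantation epiblast, 11 were higher than in WT and 3 lower, and the median change was 0.50. Of the 11, Esrrb (52.6 FPKM in WT and 49.2 FPKM in the library labelled Eed-/-) and Stat3 (20.7 and 20.3 FPKM) were lower as deposited. Past 2-fold, 3 factors were higher and 1 lower. Tbx3, a T-box factor, was at 6.79 FPKM in WT and 29.5 FPKM in the library labelled Eed-/- (change 2.14). Prdm14, a repressor of differentiation, was at 6.36 and 18.5 FPKM (1.57). Zfp42, which encodes the marker REX1 and has 1 near-identical copy, was at 131 and 272 FPKM (1.30). The gene past 2-fold lower was Dppa3, which encodes the maternal factor STELLA, at 38.4 and 15.5 FPKM (-1.10), and it too has 1 near-identical copy.

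Of 20 partners and known targets of OCT4 and SOX2, all tested, 4 were past 2-fold higher and 0 lower, 13 were higher and 7 lower, and the median change was 0.28. Beside Zfp42, which is in both lists, Upp1 (uridine phosphorylase) was at 183 and 345 FPKM (1.14) and Rif1 (a telomere and replication-timing factor) at 54.7 and 95.9 FPKM (1.05). The fourth, L1td1, which the naming rule does not cover and which was named after its value was seen, was at 142 and 241 FPKM (1.00). The count depends on the scaling, since Upp1, Rif1 and L1td1 were under 2-fold as deposited. Jarid2, among the 13 that were higher, was lower as deposited, at 90.5 and 80.7 FPKM. Pou5f1 and Sox2 themselves had changes of 0.14 and -0.08. Of 12 formative and primed epiblast genes, which mark the next stage of the epiblast, 10 were tested, 2 were past 2-fold higher and 0 lower, and the median was 0.21. Otx2, a homeobox factor of that stage, was at 1.79 and 9.90 FPKM (2.07), and Zic2 at 1.84 and 8.56 FPKM (1.85).

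The NODAL pathway that the TDGF1 protein serves was counted in the same way. Of 17 genes 16 were tested, 3 were past 2-fold higher and 0 lower, and the median was 0.22. Lefty2, a target and secreted inhibitor of the pathway, was at 25.2 and 86.5 FPKM (1.95), and Pcsk6, a protease that matures NODAL, at 11.3 and 22.3 FPKM (1.08). As deposited, Pcsk6 was under 2-fold. The ligand Nodal was at 20.1 and 28.1 FPKM (0.64), under 2-fold.

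Of 16 genes of the LIN28, let-7 and TRIM71 pathway 14 were tested, 2 were past 2-fold higher and 0 lower, and the median was -0.05. Hmga2, a let-7 target with 1 near-identical copy, was at 1.21 and 7.49 FPKM (2.02), and Igf2bp2, another, at 7.11 and 16.5 FPKM (1.25). Lin28a, which blocks let-7 maturation, was at 138 and 111 FPKM (-0.04). Cdkn1a, whose mRNA TRIM71 represses, was at 3.91 and 2.51 FPKM (-0.41). The let-7 entries Mirlet7g and Mirlet7d were listed at 0 in both libraries. The libraries were made from fragmented RNA, and the study describes no step for small RNAs, so 0 need not mean that let-7 was absent.

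DPPA2 and DPPA4 are known to activate a set of genes in the 2-cell-like state. Of 19 such genes 15 were in the tables, 12 were listed at 0 in both libraries, as were 7210 of all 24028 symbols, and 2 were tested. Many of these genes have several like copies, so a value of 0 need not mean that no RNA was present. Those tested were Dppa3, above, and Tcstv1, at 0.2 FPKM in WT and listed at 0 in the library labelled Eed-/-. Dux, the factor that starts this programme, was listed at 0 in both. Of 18 genes listed as relatives of the 10 genes by family or gene name 17 were tested, 1 was past 2-fold higher and 1 lower, and the median was 0.03. These were Sall3, at 0.33 and 2.75 FPKM (1.54), and Dppa3, which shares the Dppa name and whose sequence was not compared with the others. Sall1, the most abundant relative of Sall4, was at 18.1 and 11.3 FPKM (-0.49). Of 11 PRC2 genes 0 were past 2-fold higher and 1 lower, with a median of 0.07. That gene was Phf19, an accessory subunit, at 13.7 and 2.61 FPKM (-1.92).

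**Figure D5:**
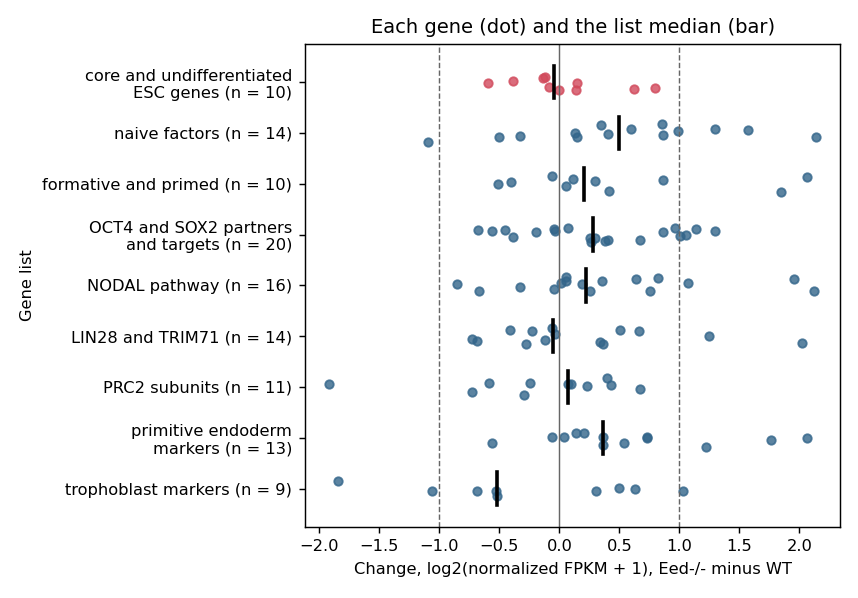
Change (log2(normalized FPKM + 1), Eed-/- minus WT) of each tested gene (dots) with the list median (black bar), for the 10 genes (red) and for related lists and marker lists (blue), with dashed lines at 2-fold. The 10 genes lie inside the dashed lines around a median of -0.04, and the naive factors have a median of 0.50.

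Markers of other cell types moved in both directions between the libraries. In bulk RNA, fewer cells of a type and less RNA per cell cannot be told apart, for the 10 genes as for these markers. Of 14 primitive endoderm markers 13 were tested, 3 were past 2-fold higher (Lama1, Col4a1 and Col4a2, all basement membrane genes) and 0 lower, and the summed normalized level was 170 in WT, against 235 in the library labelled Eed-/-. Of the tested markers 11 were higher and 2 lower. Several factors of that list had low levels, and these did not all move in the same direction. Gata4 was at 0.431 and 1.35 FPKM, Sox7 at 0.314 and 1.15 FPKM, Pdgfra at 0.196 and 0.534 FPKM and Gata6 at 0.184 and 0.514 FPKM, and Sox17 was listed at 0 in WT and at 0.449 FPKM in the other library. The counting interval of the change lay above 0 for Gata4, Sox7, Pdgfra and Sox17 and held 0 for Gata6. Hnf4a went the other way, at 0.53 and 0.0371 FPKM, with a counting interval of -0.632 to -0.295. Because 1 is added to each level before log2, a gene under 1 normalized FPKM in WT cannot be called 2-fold lower. A count of 0 lower therefore says nothing about such genes, here and in the lists below. Foxa2, under the filter, was at 0.0731 FPKM in WT and listed at 0 in the other library. Dab2 was at 0.499 and 0.515 FPKM. Of 10 trophoblast markers 9 were tested, 1 was past 2-fold higher (Eomes) and 2 lower (Tfap2c and Krt18), and the sum was 61.5 and 26.8. Without Tfap2c it was 24.1 and 17.1. Cdx2 was at 0.562 and 0.0788 FPKM and Elf5 was listed at 0 in both. Hand1 (listed at 0 in WT, 0.541 FPKM in the other library), Tead4 (2.49 and 3.67) and Gata3 (0.365 and 0.664) were higher. Of the 9 tested trophoblast markers 4 were higher and 5 lower.

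Of 10 fibroblast markers, which would show feeder cells, 5 were tested, 1 was past 2-fold higher (Thy1, at 0.976 and 6.97 FPKM) and 0 lower, and the sum was 3.65 and 9.38, with Dcn listed at 0 in both. Of the 5, only Acta2 was over 1 normalized FPKM in WT and so could be called lower. It was at 1.1 and 0.0648 FPKM, a change of -0.97. Without Thy1 the sum was 2.69 and 1.97, and 3 of the 5 tested markers were lower. Of 6 early mesoderm markers 2 were past 2-fold higher (Gsc and Kdr) and 0 lower, with a sum of 2.29 and 4.89. All 6 were under 1 normalized FPKM in WT, so none could be called lower. By sign 4 were higher and 2 lower. Of 8 neural markers 5 were tested, 0 were past 2-fold higher and 1 lower (Neurod1), with a sum of 100 and 94.4, most of it from Tubb3. The cells' own label was checked with 8 mESC markers, of which 4 are among the 10 genes. All 8 were above 10 FPKM in both libraries, 6 were higher and 2 lower, and their summed normalized level was 1210 and 1702. As deposited 4 were higher and 4 lower, and the sum was 1307 and 1565. The part of these marker levels in the changes of the 10 genes was not tested.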

How the data were processed

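RNA-seq of WT and Eed-/- mESCs was used, 1 library per genotype; the ChIP-seq, methylation and 4C samples were not analysed here. The authors made libraries from RNA depleted of ribosomal RNA, aligned the reads with TopHat (mm9) and computed FPKM with Cufflinks, 1 deposited value for each listed symbol. The submitters' processing notes list TopHat2 2.0.11 and Cufflinks 2.2.1. The annotation is not given in the sources used here.

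Each library has 24525 deposited FPKM values, and repeated entries (268 symbols) were added up. After quantile normalization of both libraries a pseudocount of 1 was used, and genes with a mean of at least 0.1 normalized FPKM were kept (the genes tested in the text) and compared with a 2-fold threshold. This scale understates the change of low genes. With 1 library per genotype there is no statistical test. Depth was recovered from the low FPKM of 4754 genes that have 1 annotated transcript (length at least 1000 bp, less 180 bp). Of 583 low values in WT 80.1%, and of 604 in the library labelled Eed-/- 84.1%, lay within 0.1 of a whole fragment. For genes with several transcripts the number of fragments is approximate.

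The 10 genes, the related lists and the motifs were chosen with earlier results of these data known. The rule for naming took all 10 genes, Eed, up to 3 genes of each related list with the largest change past 2-fold, and the 3 genes nearest to the highest and the lowest change. Genes named from these lists beside that rule (among them Nodal, Lin28a, Cdkn1a, Dux, Sall1 and the low markers) were chosen after their values were seen. 1 gene that the rule selects is not reported here. Positions are from GENCODE vM1 on mm9, which held 20642 of the 24028 symbols, and promoter sequences from RefSeq. The DPPA2 and DPPA4 proteins were translated from GENCODE transcripts. A near-identical copy covers at least 80% of a transcript at 95% identity (minimap2 2.31). The computations were tested on simulated data. Tools were Python 3.11.15, Biopython 1.88, matplotlib 3.10.9, scipy 1.17.1, pandas 2.3.3 and numpy 2.4.6.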

Additional observations from a re-analysis of the deposited data

How the results depend on the processing

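No paired analysis was possible because each genotype has 1 library and the labels share no replicate numbers, and for the same reason no replicate could be left out. The count of genes past 2-fold was 0 in both directions under every setting other than a lower threshold: the FPKM as deposited, median-ratio scaling, pseudocounts of 0.1 and 0.01, no filter or a filter at 1, repeated symbols or small non-coding RNAs left out, the chromosome median subtracted, a 3-fold threshold and, an alternative chosen after seeing the data, genes with a near-identical copy left out. Several of these settings could not change the count. A 3-fold threshold or fewer genes cannot raise a count of 0. The filters, and leaving out repeated symbols, gave the same changes as the main setting, since all 10 genes are listed once and well above both filters. The share of all genes past 2-fold did move, from 3.8% higher and 3.98% lower in the main setting. It was 3.07% and 5.4% for the FPKM as deposited, and 3.99% and 3.82% under median-ratio scaling. With a pseudocount of 0.1 it was 11.4% and 12%, and with 0.01 it was 12.9% and 13.4%. A count of 0 among 10 genes is to be read beside these shares. At a 1.5-fold threshold 2 of the 10 genes were higher and 1 was lower, against 0 higher and 2 lower for the deposited FPKM. The median change over the 10 genes ranged from -0.30 (as deposited) to -0.04, with -0.14 under median-ratio scaling, -0.09 with the chromosome median subtracted and -0.10 without the genes that have a copy. The counting intervals leave out the spread between cultures, which 1 library per genotype cannot give, and the changes of Pou5f1, Sox2, Sall4, Tdgf1 and Trim71 (0.14, -0.08, -0.12, -0.004 and -0.14 after normalization) were -0.07, -0.32, -0.35, -0.28 and -0.36 with the values as deposited.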
